A study of Mus musculus with 14 samples.

Results

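The genes of cholesterol synthesis and of the SREBP2 pathway were followed in mouse liver. They comprise 27 listed genes, chosen by symbol: 18 enzymes of synthesis, 4 genes for SREBP2 and its partners in the endoplasmic reticulum, and 5 genes of sterol transport and receptor turnover. Of the 27, 26 were measured in each of the 3 tables, which hold 23404, 20337 and 21915 entries. The expression of Npc1l1, the intestinal cholesterol importer, is not analysed here.

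RNA was measured in 12 bulk liver libraries, 3 in each of 4 groups, and in 2 libraries of sorted liver nuclei. One bulk table holds livers labelled Ms4a7 KO and livers labelled wild type, all after 22 weeks on a NASH diet, a diet that induces nonalcoholic steatohepatitis. The other holds livers labelled LD and livers labelled PBS, both from wild-type mice on chow that received 6 consecutive days of tail-vein injection of LD or phosphate-buffered saline; LD stands for lipid droplets in the series' own use of the term. The nuclei came from livers on the same NASH diet for 22 weeks, with 3 livers pooled for Ms4a7 KO and 3 for wild type. Age, sex, strain and the deleted part of Ms4a7 are not stated in the sources used here. The labels do not say that replicates of a bulk group are separate animals, so p-values measure the spread between these libraries.

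Liver makes cholesterol from acetyl-CoA through mevalonate, squalene and lanosterol. When sterol is scarce, Scap escorts the membrane-bound precursor of SREBP2 from the endoplasmic reticulum to the Golgi, where it is cut, and the released factor turns on the enzymes of the pathway. Insig1 and Insig2 hold Scap back when sterol is plentiful, while Abcg5 and Abcg8 together pump sterol into bile.

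Each bulk library held 21945394 to 23126164 reads in genes in the table labelled KO and wild type and 39318264 to 41346464 in the table labelled LD and PBS. Values are normalized counts, and fold changes are on the log2 scale (value + 1) with SE from limma, tested over all genes of a table with Benjamini-Hochberg adjustment at 0.05. Ms4a7, a membrane protein gene of macrophages, went against the genotype labels. It had 102, 117 and 136 normalized counts in the libraries labelled KO, against 9.70, 25.8 and 23.3 in those labelled wild type (2.63 ± 0.37, adjusted p = 0.0149, lost without KO replicate 2 or 3). In the other table, where all mice are labelled wild type, it had 10.5, 7.60 and 9.32 in the libraries labelled LD, against 62.2, 84.7 and 163 in those labelled PBS (-3.26 ± 0.39, adjusted p = 0.00428). The submitters named the table of the KO and wild-type columns for lipid droplets, headed its KO columns Treated and its wild-type columns Untreated, and named the other table for Ms4a7. Every direction below therefore belongs to the libraries that carry a label. The genotype, diet and injection given above for each bulk table rest on the labels too. Whether the labels of the bulk tables were exchanged was not tested. Among macrophage and Kupffer cell markers, 7 of 10 tested were higher in the libraries labelled KO, with sums of 36452 to 62016 against 5236 to 10358. In bulk tissue, fewer cells of a type and less RNA per cell cannot be told apart.

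The enzymes of synthesis moved together between libraries of the same group more than between groups. Labelled wild type replicate 2 had the highest level of all 18 enzymes among the 6 libraries of its table. It was the highest library for 17.7% of the 15827 genes tested there. On average over the enzymes it stood 0.60 ± 0.22 log2 units above the mean of the 6 libraries (SD over 18 enzymes). The other 5 libraries stood between -0.30 and -0.01. Labelled wild type replicate 3 was the lowest library for 10 of the 18 enzymes, and for 14.4% of all genes tested.

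Hmgcs1, which makes HMG-CoA, shows the pattern: it had 3507, 3469 and 3842 normalized counts in the libraries labelled KO, against 4714, 7768 and 2725 in those labelled wild type. Both the highest and the lowest value thus lay in the wild-type group. Msmo1, a methylsterol oxidase of the segment from lanosterol to cholesterol, had 5145, 5169 and 3759 against 5971, 11076 and 5104. The median SD within groups was 0.40 log2 units for the 18 enzymes, with a range of 0.12 to 0.59. For the 5457 genes of the same range of level it was 0.14.

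The table labelled LD and PBS showed a smaller spread of the same kind. Labelled LD replicate 3 was the highest library for 13 of the 18 enzymes, and for 22.3% of the 14900 genes tested. Labelled LD replicate 2 was the lowest for 12 enzymes, and for 16.7% of all genes. The mean deviation of the enzymes was 0.27 in LD replicate 3 and -0.20 in LD replicate 2. Fdps, the farnesyl diphosphate synthase, had 2399, 2193 and 5405 normalized counts in the libraries labelled LD, against 2437, 3214 and 3321 in those labelled PBS. The median SD within groups was 0.26 log2 units for the enzymes and 0.14 for the 10277 genes of the same range of level.

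**Figure D1:**
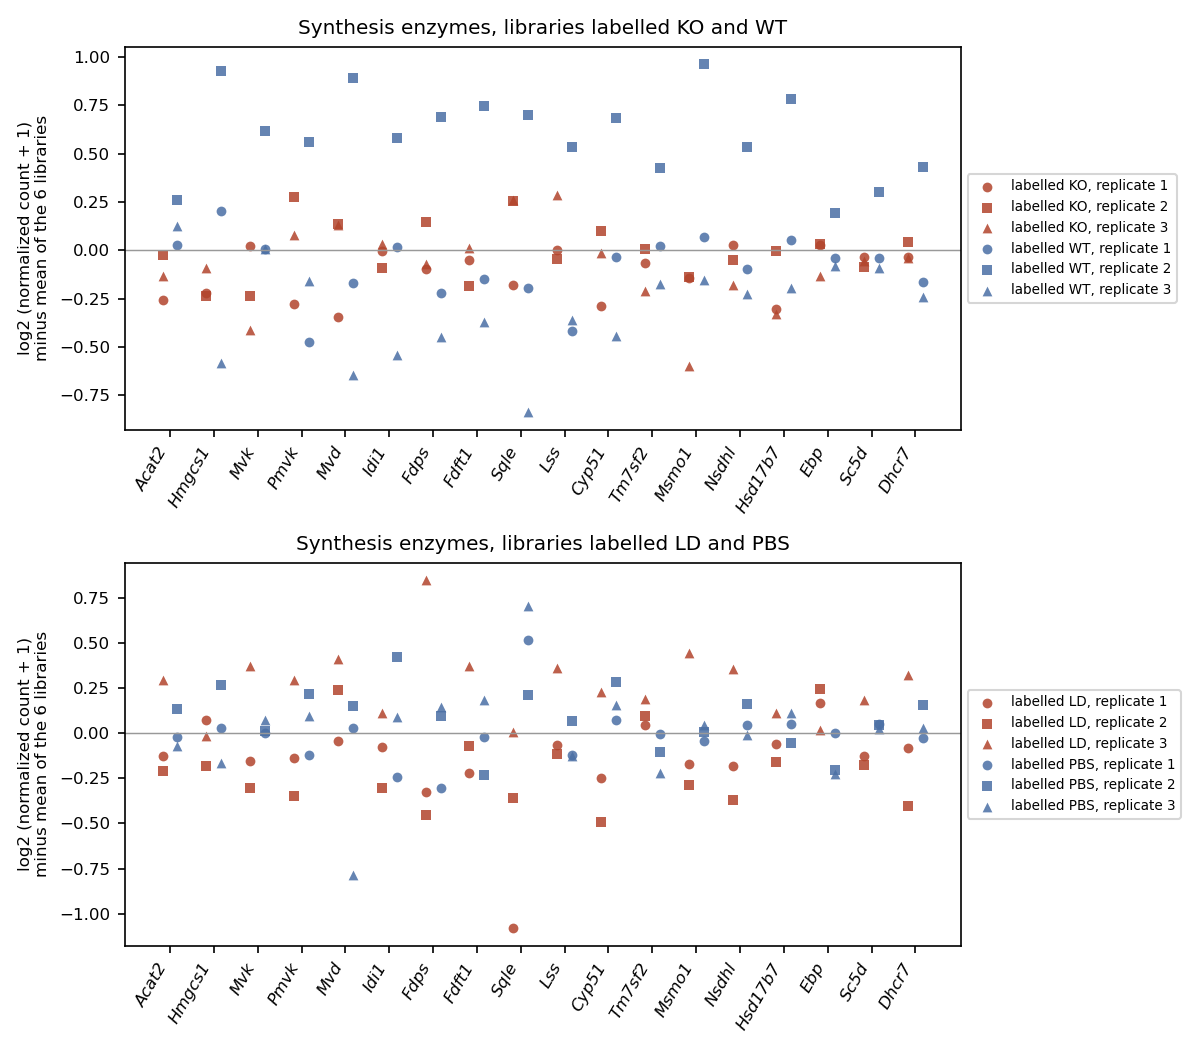
Level of each of the 18 enzymes in each bulk library, as log2 (normalized count + 1) minus the mean of the 6 libraries of its table; upper panel, libraries labelled KO and wild type (WT); lower panel, libraries labelled LD and PBS. Labelled wild type replicate 2 (blue squares, upper panel) is the highest library for all 18 enzymes, and labelled LD replicate 3 (red triangles, lower panel) for 13.

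The promoters of these genes were read from RefSeq sequences (GRCm38.p6, the build of mm10), 250 bases before to 50 after each annotated start. Of the 27 listed genes, 23 matched, Npc1l1 among them, with 30 windows. No window was read for Fdps, Fdft1, Sqle and Stard4, so their promoters were not searched. The SREBP motif TCACNCCAC was searched on both strands, with any base at N. It occurred in 1 of the 23 genes, Hmgcs1, and in 1.44% of all 27025 genes with a window. A shorter form, TCACNCCA, which includes every match of the longer one and was added after the first search, occurred in 3 of the 23, Hmgcs1, Msmo1 and Srebf2, and in 4.97% of all genes. CCAAT, on either strand, occurred in 21 of the 23 genes, among them 14 of 15 enzymes, and in 41.1% of all genes.

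Shown for the enzymes that varied together are the 250 bases before the start, 5′ to 3′ on the strand of the gene, with CCAAT (or ATTGG, its reverse complement) and the SREBP motif in capitals. Hmgcs1 carries the long motif and Msmo1 the short one, Mvk has the most CCAAT matches of any member (5 in its window), and Srebf2 is the gene of SREBP2 itself.
Hmgcs1 (chr13:119690101-119690350, plus strand): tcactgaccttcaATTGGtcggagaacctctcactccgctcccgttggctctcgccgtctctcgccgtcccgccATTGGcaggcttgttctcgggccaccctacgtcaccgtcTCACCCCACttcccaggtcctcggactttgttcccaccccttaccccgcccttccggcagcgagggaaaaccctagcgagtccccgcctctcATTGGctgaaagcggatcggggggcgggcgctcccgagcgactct
Mvk (chr5:114444019-114444268, plus strand): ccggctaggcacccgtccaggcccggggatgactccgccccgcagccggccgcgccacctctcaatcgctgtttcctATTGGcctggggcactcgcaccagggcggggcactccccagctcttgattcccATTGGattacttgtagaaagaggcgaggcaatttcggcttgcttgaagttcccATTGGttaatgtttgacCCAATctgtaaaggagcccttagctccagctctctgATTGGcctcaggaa
Msmo1 (chr8:64733579-64733828, minus strand): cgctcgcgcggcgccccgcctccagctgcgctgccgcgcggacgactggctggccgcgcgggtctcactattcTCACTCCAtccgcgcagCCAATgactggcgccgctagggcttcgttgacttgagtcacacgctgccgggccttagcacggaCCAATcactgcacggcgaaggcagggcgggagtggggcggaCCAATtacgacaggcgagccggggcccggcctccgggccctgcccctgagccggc
Srebf2 (chr15:82147019-82147268, plus strand): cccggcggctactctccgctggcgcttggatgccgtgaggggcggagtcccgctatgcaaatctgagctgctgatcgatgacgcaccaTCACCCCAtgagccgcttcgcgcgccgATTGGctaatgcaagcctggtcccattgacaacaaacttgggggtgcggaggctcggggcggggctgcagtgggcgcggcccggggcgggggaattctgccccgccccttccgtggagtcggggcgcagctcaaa
Counted from the start of the gene, the first base of the long motif in Hmgcs1 lies at -137, between CCAAT matches at -176 and -45. In Srebf2 the short motif lies at -162 and the CCAAT match at -135. A match describes letters and is not evidence of binding.

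Between the libraries labelled KO and those labelled wild type, Abcg8 was the member that passed the test, and it was higher. It is 1 of 26 members tested, where 3.02% of all genes tested were called higher and 0.701% lower. The median log2 fold change was -0.06 over the members and -0.02 over all genes. At an unadjusted p under 0.05 there were 5 members, and 18.7% of all genes. The groups did not overlap for 2 members that were higher and 3 that were lower, against 12.4% and 11.7% of all genes. EdgeR called 1 member and DESeq2 3, against 4.09% and 7.84% of all genes.

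Of the 18 enzymes, limma, edgeR and DESeq2 called 0 each, and 1 had an unadjusted p under 0.05. Their median was -0.13, with 15 of 18 below 0. The sign of the median was not the same with and without the wild-type library described above. Without labelled wild type replicate 2 the median was 0.13, and 13 of 18 were above 0. That library was the highest for all 18, so leaving it out could only raise these fold changes. No conclusion is drawn from the fit without it. The 7 genes of the mevalonate segment, which ends with farnesyl diphosphate, ranged from -0.42 for the mevalonate kinase Mvk to 0.05 for the phosphomevalonate kinase Pmvk. Acat2, the cytosolic thiolase of the first step, was the enzyme whose groups lay apart. It had 1821, 2141 and 1989 normalized counts in the libraries labelled KO, against 2223, 2607 and 2381 in those labelled wild type. Its fold change of -0.28 ± 0.10 did not pass (adjusted p = 0.190), though the authors' deposited table gives it an adjusted p of 0.0181.

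Hmgcs1 stood at -0.36 ± 0.33, with a 95% interval of -1.12 to 0.39. The decarboxylase Mvd and the isomerase Idi1 stood at -0.05 and -0.04, and Fdps at -0.01. With intervals as wide as -0.89 to 0.79 for Mvd, a change of moderate size in either direction lay within the error. In the squalene and lanosterol segment, the squalene synthase Fdft1 stood at -0.15, the epoxidase Sqle at 0.22 and the lanosterol synthase Lss at 0.16. Sqle had 1065, 1438 and 1445 normalized counts in the libraries labelled KO, against 1052, 1964 and 675 in those labelled wild type. Its wild-type values enclosed all KO values.

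All 8 genes from lanosterol to cholesterol lay below 0, between -0.59 and -0.02, and 0 passed. Without labelled wild type replicate 2, 5 of the 8 lay above 0, between 0.01 for Sc5d and 0.19 for Dhcr7. Msmo1 was the lowest at -0.59 ± 0.28 (adjusted p = 0.320), and at -0.25 without labelled wild type replicate 2. The authors' deposited table gives it an adjusted p of 0.0204. The reductase Hsd17b7 stood at -0.43 ± 0.24, the sterol reductase Tm7sf2 at -0.18, and the demethylating enzymes Cyp51 and Nsdhl at -0.14 each. The desaturase Sc5d had 11186, 10799 and 11022 normalized counts in the libraries labelled KO, against 11129, 14133 and 10754 in those labelled wild type (-0.12 ± 0.12). The sterol isomerase Ebp (-0.05) and Dhcr7, the reductase that yields cholesterol (-0.02), lay closest to 0 in this segment.

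Among the regulators, Srebf2 itself had 1069, 1093 and 1152 normalized counts in the libraries labelled KO, against 1111, 1331 and 1028 in those labelled wild type (-0.06 ± 0.11). Its groups overlapped. Scap had 2195, 2268 and 2358 against 2717, 2674 and 2806, a fold change of -0.27 ± 0.08 (adjusted p = 0.111). All 3 KO values lay below all 3 wild-type values, but the test did not pass, while the authors' deposited table gives an adjusted p of 0.00108. Insig2 had 1449, 1926 and 1349 in the libraries labelled KO, against 3586, 2058 and 2603 in those labelled wild type. Its fold change was -0.78 ± 0.21, with an adjusted p of 0.0978 in limma, 0.111 in edgeR and 0.00757 in DESeq2. The authors' deposited table gives Insig2 an adjusted p of 0.000148. Insig1 had 6542, 7355 and 10745 against 6022, 7565 and 6416 (0.27 ± 0.19, adjusted p = 0.502), with overlapping groups.

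Of the sterol exporter genes, limma called Abcg8 and not Abcg5. Abcg8 (mm10 chromosome 17, 84676302 to 84700333, plus strand) had 4135, 3916 and 4808 normalized counts in the libraries labelled KO, against 2968, 2384 and 2817 in those labelled wild type. That is 4286 ± 465 against 2723 ± 303 (SD, n = 3 each), a log2 fold change of 0.66 ± 0.12 with an adjusted p of 0.0307 in limma. All KO values lay above all wild-type values. The call was lost without any 1 of KO replicates 1, 2 and 3 or wild type replicates 2 and 3, with adjusted p up to 0.0902 and fold changes of 0.56 to 0.72. Its partner Abcg5 (chromosome 17, 84658234 to 84683011, minus strand) had 3717, 3319 and 3872 against 2887, 2072 and 2641. Its groups lay apart too (0.53 ± 0.13), with an adjusted p of 0.0789 in limma, 0.0816 in edgeR and 0.0111 in DESeq2, and of 0.0125 in the authors' deposited table. Labelled wild type replicate 2, the library highest for the enzymes, was the lowest of the 6 for both transporter genes. Of 10 general hepatocyte markers, 1 was higher and 0 lower, with sums of 2383772 to 2847666 in the libraries labelled KO and 2362927 to 2645530 in those labelled wild type. Of 7 periportal hepatocyte markers 2 were higher, with sums of 188940 to 265835 against 208827 to 221823, and of 7 pericentral markers 0 were called, with sums of 231928 to 276079 against 281340 to 292815. In the neutrophil, endothelial and B cell lists 1 marker each was higher. The part of these markers, and of the macrophage markers above, in the result was not tested.

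RefSeq has 2 starts for Abcg8. The one at 84683121 faces away from the start of Abcg5 with 109 bases between them, and the other lies inside Abcg5. In the mm10 gene models the 2 genes also share 82 exonic bases on opposite strands, and whether the reads were counted by strand is not given in the sources used here, so some reads could be shared. The stretch between the facing starts is shown because it lies before both genes. The sequence covers the 120 bases before the start of Abcg8 at 84683121, read on the plus strand, with its CCAAT match in capitals. Its first 11 bases lie in Abcg5 and hold that match, which is thus not between the starts.
Abcg8 and Abcg5 (chr17:84683001-84683120, plus strand): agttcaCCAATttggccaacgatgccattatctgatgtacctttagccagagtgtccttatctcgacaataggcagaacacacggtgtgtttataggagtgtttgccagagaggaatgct

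Of the remaining genes, Stard4, a carrier of sterol through the cytosol, had 2793, 3365 and 2635 normalized counts in the libraries labelled KO, against 2954, 2883 and 2577 in those labelled wild type (0.06 ± 0.11). Mylip, a ubiquitin ligase that marks lipoprotein receptors for degradation, had 95.8, 105 and 169 against 75.2, 110 and 131 (0.22 ± 0.28). The groups of both genes overlapped.

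**Figure D2:**
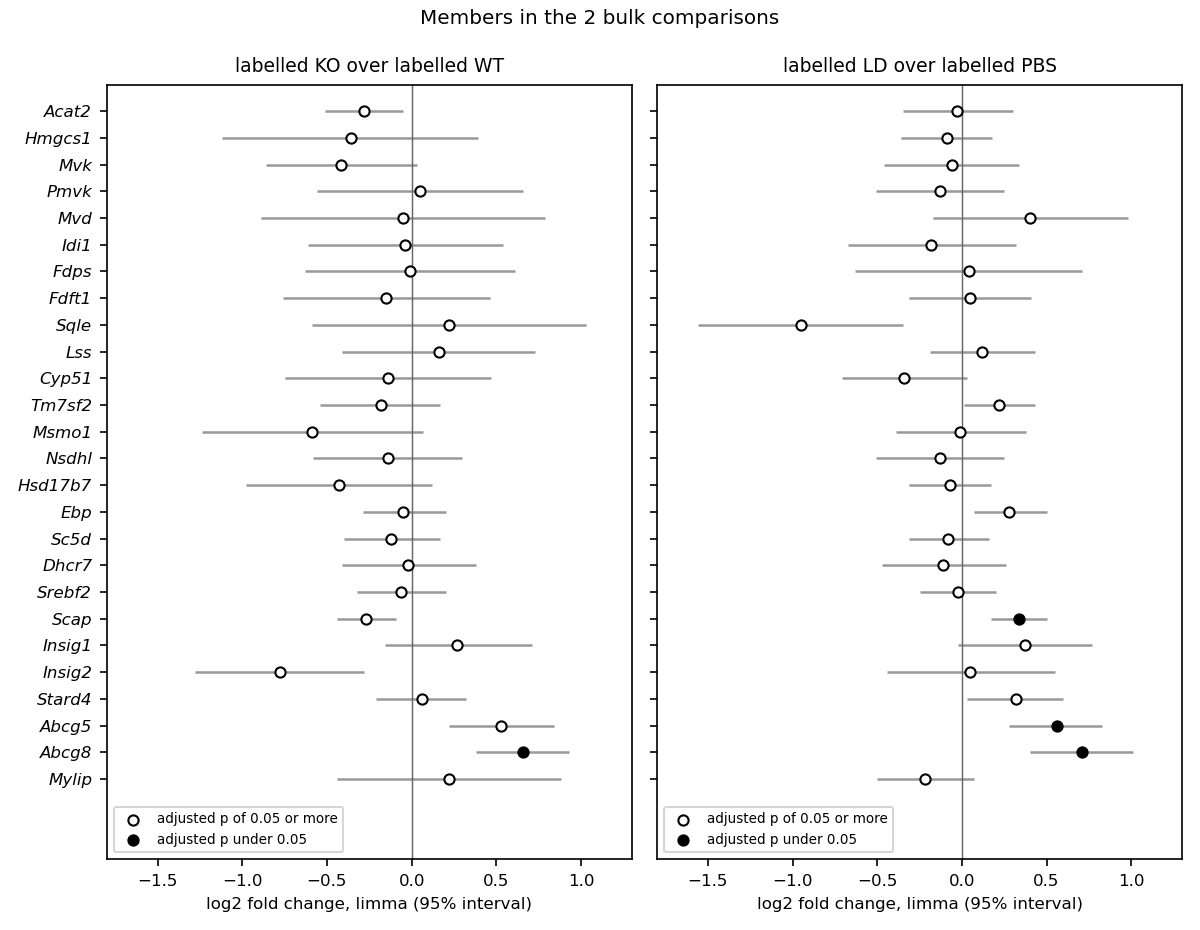
Log2 fold change (limma, points) with its 95% interval (lines) for each member; left, libraries labelled KO over libraries labelled wild type (WT); right, libraries labelled LD over libraries labelled PBS. Filled points have an adjusted p under 0.05: Abcg8 on the left, and Scap, Abcg5 and Abcg8 on the right.

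Between the libraries labelled LD and those labelled PBS, Abcg8, Abcg5 and Scap were higher and 0 of 26 members were lower. Of all 14900 genes tested, 1.95% were called higher and 2.21% lower. The median log2 fold change was -0.02 over the members and 0.00 over all genes. At an unadjusted p under 0.05 there were 7 members, and 19.7% of all genes. The groups lay apart for 5 members that were higher and 1 that was lower, against 12.6% and 12.8% of all genes. EdgeR called 2 members and DESeq2 4, against 4.05% and 8.20% of all genes.

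Abcg8 had 12097, 10184 and 10221 normalized counts in the libraries labelled LD, against 5819, 8173 and 6070 in those labelled PBS. That is 10834 ± 1094 against 6687 ± 1293 (SD, n = 3 each), a log2 fold change of 0.71 ± 0.14 with an adjusted p of 0.0237 in limma. Abcg5 had 10044, 8972 and 8414 against 5598, 7436 and 5718 (0.56 ± 0.12, adjusted p = 0.0387 in limma and 0.0532 in edgeR). For both, every LD value lay above every PBS value. Both calls were lost without LD replicate 1 or 2 or PBS replicate 1 or 3. The adjusted p then reached 0.105 for Abcg8 and 0.157 for Abcg5, and the fold changes ranged from 0.62 to 0.86 and from 0.48 to 0.69. With quantile normalization the adjusted p was 0.0737 for Abcg8 and 0.125 for Abcg5.

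Scap had 4111, 4246 and 4138 normalized counts in the libraries labelled LD, against 3369, 3179 and 3351 in those labelled PBS, a log2 fold change of 0.34 ± 0.07 (limma adjusted p = 0.0370). The 3 values of each group were close, and the groups lay apart. The call held without LD replicate 3 and was lost without any other 1 library (adjusted p up to 0.151) and with quantile normalization (adjusted p = 0.0978). Its direction was opposite to that of the comparison labelled KO over wild type, in which it did not pass; the difference between the comparisons was not tested.

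Markers of several cell types also differed between these libraries. Of 12 macrophage and Kupffer cell markers, 3 were lower and 1 was higher in the libraries labelled LD. Their sums were 14885 to 19286, against 17323 to 27531 in the libraries labelled PBS. Of 10 general hepatocyte markers 0 were called, and of 8 T and NK cell markers 1 was higher. Of 7 pericentral hepatocyte markers 2 were higher in the libraries labelled LD, with sums of 437083 to 473874 against 276082 to 375881. Of 7 periportal markers 1 was higher, with sums of 215550 to 232162 against 170877 to 189212. Of 10 stellate cell markers 4 were lower, with sums of 32246 to 33872 against 40691 to 47068, and of 9 cholangiocyte markers 5 were lower, with sums of 5701 to 9020 against 12854 to 16945. All 9 cholangiocyte markers were detected. The part of these shifts in the results was not tested.

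Of the 18 enzymes, limma and edgeR called 0 and DESeq2 1, and 3 had an unadjusted p under 0.05. Their median was -0.06. The largest fold change was that of Sqle, which had 81.9, 136 and 175 normalized counts in the libraries labelled LD, against 250, 202 and 284 in those labelled PBS (-0.95 ± 0.27). Its LD values all lay below its PBS values. The adjusted p was 0.0865 in limma, 0.0895 in edgeR and 0.0138 in DESeq2, and 0.0121 in the authors' deposited table. Averaged over both genotypes, Sqle, Fdft1 and Nsdhl had their highest nucleus level in the cholangiocyte-like group described below. Within single genotypes this held for Sqle in both, for Fdft1 in ko nuclei only and for Nsdhl in neither. Cholangiocyte markers were lower in the libraries labelled LD, while the fold change was 0.05 for Fdft1 and -0.13 for Nsdhl. The part of those markers in the value of Sqle was not tested.

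The test of the enzymes depended on labelled LD replicate 3, the library with the highest levels. Without it, 3 of the 18 enzymes passed, against 8.21% of all genes in that fit. These were Sqle (-1.20, adjusted p = 0.0186) and Cyp51 (-0.54, adjusted p = 0.0161), both lower, and Ebp (0.35, adjusted p = 0.0460), which was higher. The median of the enzymes was then -0.21, with 15 of 18 below 0. As LD replicate 3 was singled out for its high enzyme levels, lower values without it follow from that choice. No conclusion is drawn from that fit.

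With all libraries, Cyp51 had 1137, 959 and 1582 normalized counts in the libraries labelled LD, against 1420, 1644 and 1503 in those labelled PBS (-0.34 ± 0.16). Ebp had 5981, 6328 and 5396 against 5338, 4635 and 4568 (0.28 ± 0.10, adjusted p = 0.139), and Tm7sf2 had 1309, 1353 and 1446 against 1263, 1177 and 1088 (0.22 ± 0.09, adjusted p = 0.230). Those 2 were the enzymes with every LD value above every PBS value. Mvd stood at 0.40 ± 0.26 (154, 188 and 212 against 162, 177 and 92.0), with the widest scatter on the PBS side. The remaining enzymes lay between -0.18, for Idi1, and 0.12, for Lss.

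Srebf2 had 1726, 1690 and 2051 normalized counts in the libraries labelled LD, against 1725, 1905 and 1917 in those labelled PBS (-0.02 ± 0.10). Insig1 had 7607, 6445 and 8922 against 5959, 7403 and 4560 (0.37 ± 0.18, adjusted p = 0.279). Insig2 had 16286, 13384 and 8680 against 13342, 13332 and 9506 (0.05 ± 0.22). The groups of all 3 overlapped. Stard4 had 1741, 1520 and 2072 against 1324, 1356 and 1586 (0.32 ± 0.13, adjusted p = 0.209), and Mylip 378, 320 and 297 against 368, 394 and 389 (-0.22 ± 0.13). Neither passed, and the groups of both overlapped.

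**Figure D3:**
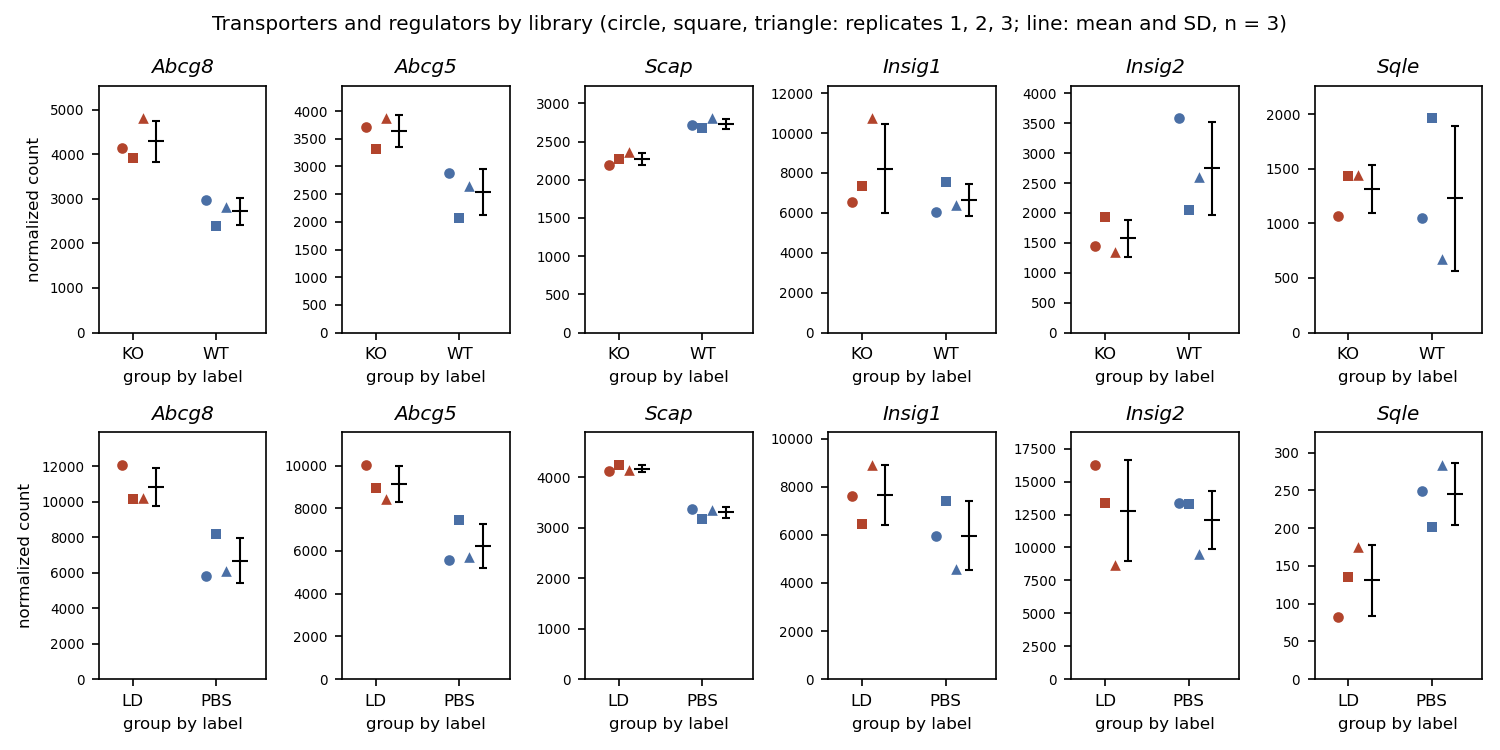
Normalized counts of Abcg8, Abcg5, Scap, Insig1, Insig2 and Sqle in each library (points; circle, square and triangle are replicates 1, 2 and 3) with the mean and SD of each group (n = 3); upper panels, groups labelled KO and wild type (WT); lower panels, groups labelled LD and PBS, scaled separately. Abcg8 and Abcg5 lie higher in every library labelled KO or LD than in any library of the group set against it.

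Further genes near the pathway were counted in 4 lists. Of 11 other sterol enzymes and genes of SREBP processing, 1 was higher in the libraries labelled KO. This was Rnf145, a sterol-regulated ubiquitin ligase of the endoplasmic reticulum, with 521, 605 and 816 normalized counts against 356, 298 and 312 in those labelled wild type (0.98 ± 0.17, limma adjusted p = 0.0268). Its call was lost without KO replicate 2 or 3 or wild type replicate 2 or 3 (adjusted p up to 0.0879). Of 9 tested genes of oxysterol metabolism and of LXR, the nuclear receptor for oxysterols, 1 was lower, the cholesteryl ester hydrolase Nceh1, with 453, 502 and 497 against 729, 619 and 749 (-0.53 ± 0.11, limma adjusted p = 0.0445). That call was lost without any 1 library other than wild type replicate 2 (adjusted p up to 0.137) and in edgeR (0.0529), with TMM scaling (0.0573), with no filter (0.0507) and with the replicate block (0.0755). In this list edgeR called 1 gene, the cholesterol acyltransferase Soat1, which was higher (limma log2 fold change 1.36, adjusted p = 0.0487 in edgeR and 0.0529 in limma). DESeq2 called 5 of 9, against 7.84% of all genes. Of these, Soat1, Abcg1 (0.80 in limma) and Nr1h3 (0.30) were higher, and Cyp7b1 (-0.78) and Nceh1 were lower. Among the 11 sterol and processing genes edgeR called 1 and DESeq2 2. Of 10 genes of the isoprenoid branches and 12 other SREBP targets and lipogenic genes, limma called 0 in this comparison, with 1 and 3 at an unadjusted p under 0.05. There edgeR called 0 of both lists, and DESeq2 called 0 and 1.

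In the libraries labelled LD, 1 of the 12 other SREBP targets was higher. Srebf1, the gene of the lipogenic factor SREBP1, had 44266, 39643 and 35256 normalized counts, against 25691, 28707 and 21846 in the libraries labelled PBS (0.65 ± 0.13, limma adjusted p = 0.0264). The call held only without LD replicate 3 among the fits without 1 library (adjusted p up to 0.110 in the others) and was lost with quantile normalization. Of 10 LXR and oxysterol genes 1 was higher, Cyp7b1, an oxysterol hydroxylase of bile acid synthesis. It had 5184, 5548 and 3937 against 2402, 1484 and 1415 (1.50 ± 0.20, limma adjusted p = 0.00587), and this call held without any 1 of the 6 libraries. EdgeR called 1 gene of each of these 2 lists. DESeq2 called 1 SREBP target and 3 of the 10 LXR and oxysterol genes, against 8.20% of all genes. Those 3 were Nr1h3, Cyp27a1 and Cyp7b1, all higher. In the 10 genes of the isoprenoid branches and the 11 other sterol enzymes and processing genes limma called 0, with 0 and 2 at an unadjusted p under 0.05. EdgeR called 0 of both lists, and DESeq2 called 0 and 1.

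Per kilobase of annotated exon, Ebp, Insig1 and Sc5d had the highest levels in the table labelled KO and wild type, with means over 6 libraries of 2766, 2406 and 2364 normalized counts per kilobase. Mylip had the lowest, 35.4. In the table labelled LD and PBS, Insig2 (3577), Sc5d (3223) and Abcg5 (2838) led on the same scale, and Idi1 (32.7) and Sqle (33.9) were lowest. The tables were scaled separately, so levels are not compared between them. Beyond Abcg5 and Abcg8, exons of 8 members share bases with another annotated gene, and strand settings are unknown, so part of their reads could belong to it. Among them are Scap (985 bases with 5830462I19Rik), Fdft1 (774 with the protease gene Ctsb), Tm7sf2 (532 with Vps51, on the same strand) and Fdps (1124 with Gm43738, on the same strand).

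In the nuclei, levels are mean UMIs (unique molecular identifiers, tags that count RNA molecules) per 10000 in each of 12 numbered groups. From fixed marker lists group 0 was pericentral hepatocyte-like, group 1 periportal hepatocyte-like, group 2 stellate-like, group 3 macrophage-like, group 4 endothelial-like and group 7 cholangiocyte-like. Group 6 was T or NK cell-like and group 8 stayed unnamed. Groups 5, 9, 10 and 11, where 1 read moves a mean the most, were neutrophil-, B cell-, dendritic cell- and mesothelial-like. In the macrophage-like group Ms4a7 was 0.622 in ko nuclei and 1.25 in wt nuclei. With 1 pooled library per genotype there is no test, and depth per nucleus is unknown.

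Of 26 members, 17 were higher in both hepatocyte-like groups than in each of groups 2, 3, 4, 7 and 8 (mean of both genotypes). That is 65.4%, against 19.5% of all 21911 genes in the table. Abcg5 and Abcg8 stood out most, at 20.1 and 22.3 times the mean of those 5 groups. Insig1 was at 6.24 times, Sc5d at 5.59, Fdps at 5.30 and Insig2 at 5.28. Hepatocyte markers were also found outside hepatocyte-like groups, at 14.5% to 33.8% of their hepatocyte level in ko nuclei and 9.85% to 26.5% in wt nuclei. Abcg8 reached 2.50% to 5.98% there in ko nuclei and 1.15% to 6.68% in wt nuclei, and Abcg5 4.19% to 7.35% and 2.29% to 5.0%. Those levels lay below the marker share. Whether they are background was not tested. Sc5d and Insig1 were likewise at or under the marker share in at least 1 genotype in all 5 groups.

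Other members had their highest level elsewhere. Mylip was low in hepatocyte-like nuclei, at 0.0111 and 0.0165 in ko nuclei and 0.0168 and 0.0197 in wt nuclei of groups 0 and 1. It was highest in the endothelial-like group, at 4.79 in ko nuclei and 3.06 in wt nuclei, followed by the B cell-like group (2.21 and 2.52), group 8 (2.36 and 1.86) and the macrophage-like group (1.91 and 1.93). Sqle was highest in the cholangiocyte-like group, at 0.208 in ko nuclei and 0.220 in wt nuclei, while group 0 had 0.00306 and 0.00180. Fdft1 was highest there too when both genotypes were averaged (0.334 in ko and 0.420 in wt nuclei). Srebf2 was highest in the sparse dendritic-like group (2.51 in ko and 2.42 in wt nuclei), against 0.516 and 0.585 in group 0. Fdft1, Tm7sf2, Msmo1, Nsdhl, Srebf2, Scap and Mylip lay above the hepatocyte marker share in all 5 non-hepatocyte groups and both genotypes.

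**Figure D4:**
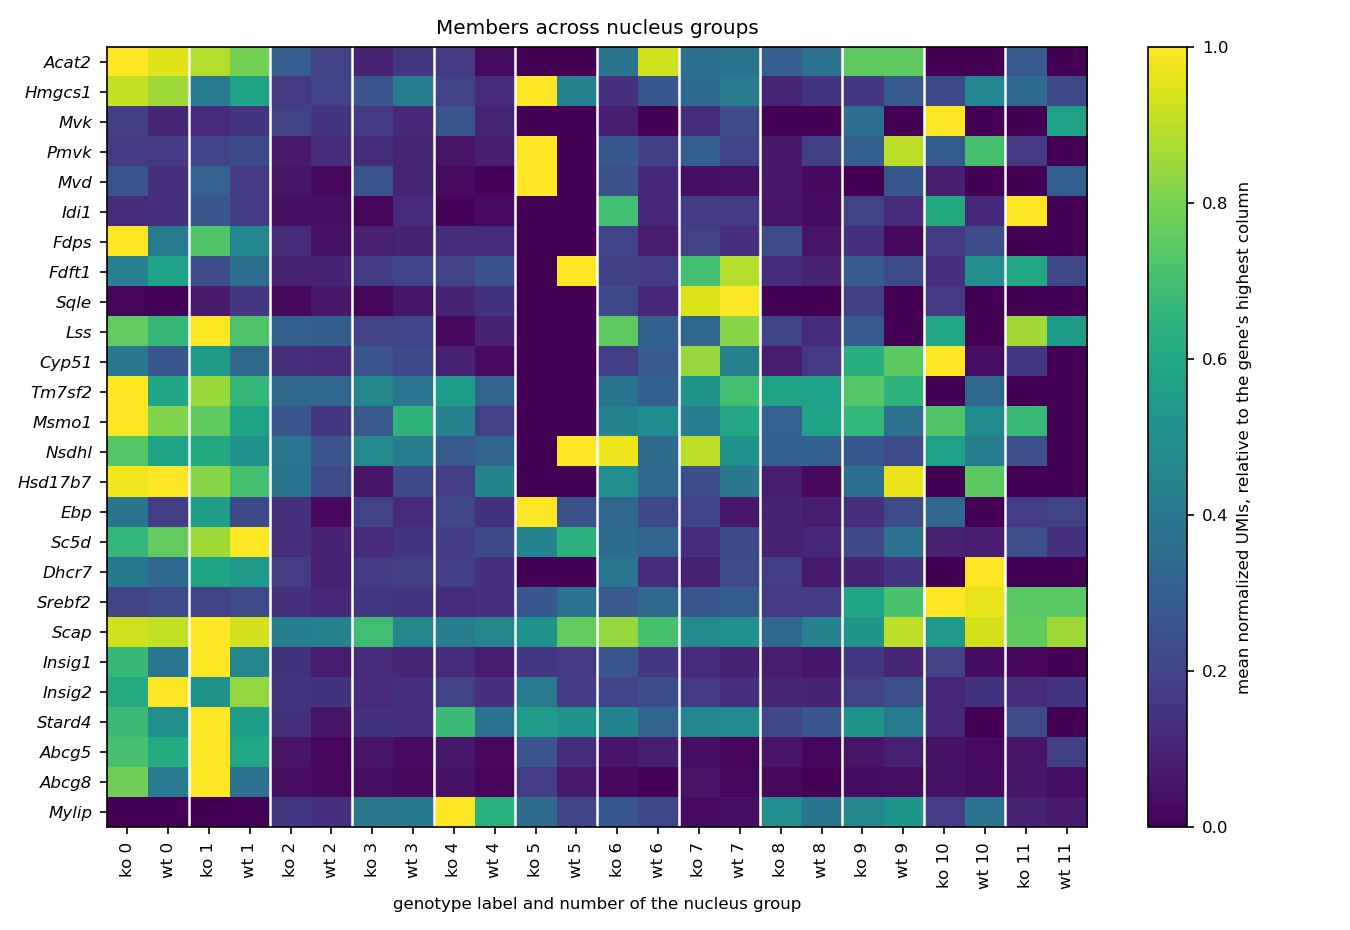
Mean normalized UMIs of 26 members in 12 nucleus groups and both genotypes (ko left of wt in each pair), as a share of each gene's highest column (color scale). Abcg5 and Abcg8 are brightest in groups 0 and 1, Mylip in group 4 and Sqle in group 7; columns of the sparse groups 5, 9, 10 and 11 hold isolated high or empty cells.

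Between the 2 hepatocyte-like groups, members passed a limit of 1.5-fold about as often as all genes did. Of 22 members above the median level of genes in both groups, 0 were higher and 1 was lower by 1.5-fold in group 1 in both genotypes, against 3.69% and 3.61% of all 10628 genes. This was Fdft1, at 0.112 in group 1 and 0.206 in group 0 in ko nuclei, and at 0.172 and 0.275 in wt nuclei. Hmgcs1 had log2 ratios of group 1 to group 0 of -1.16 in ko nuclei and -0.56 in wt nuclei, just inside the limit in wt. Dhcr7 went the other way, at 0.52 in ko nuclei and 0.68 in wt nuclei, inside the limit in ko.

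Between genotypes, Abcg8 had the highest ratio of ko to wt nuclei among the members in group 1 and the fourth highest in group 0. It had 2.83 in ko nuclei and 1.48 in wt nuclei of group 0, and 3.61 and 1.37 in group 1, log2 ratios of 0.94 and 1.40. Abcg5 had 2.30 and 2.0 in group 0 and 3.25 and 1.94 in group 1 (0.20 and 0.74). Insig1 had 1.45 and 0.853 in group 0 and 2.16 and 0.983 in group 1 (0.76 and 1.14). Insig2 had 4.24 in ko nuclei and 6.89 in wt nuclei of group 0, and 3.58 and 5.77 in group 1 (-0.70 and -0.69). Thus the export and Insig1 genes were above 0 and Insig2 below 0 in both groups. Ms4a7 was lower in ko nuclei, whereas in bulk it was higher in the libraries labelled KO, so nuclei and bulk values are not set against each other by label.

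Past 1.5-fold, 6 of 22 members were higher and 1 lower in group 0, against 12.2% and 5.08% of 10955 genes. In group 1, 9 of 23 were higher and 2 lower, against 11.9% and 9.46%. The median ratio was 0.23 in group 0 and 0.35 in group 1, against 0.02 and -0.03 over all genes. Among the enzymes, Ebp (1.06 and 1.29), Mvd (0.95 and 0.91) and Fdps (1.30 and 0.64) were past the limit upward in both groups, while Fdft1 stood at -0.41 and -0.62. Hmgcs1 stood at 0.09 and -0.51. The enzymes summed to 5.58 in ko nuclei and 4.94 in wt nuclei of group 0, and to 5.65 and 5.43 in group 1. Hepatocyte markers summed to 105 in ko nuclei and 79.3 in wt nuclei of group 0 and to 194 and 107 in group 1, and their part in these ratios was not tested.

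**Figure D5:**
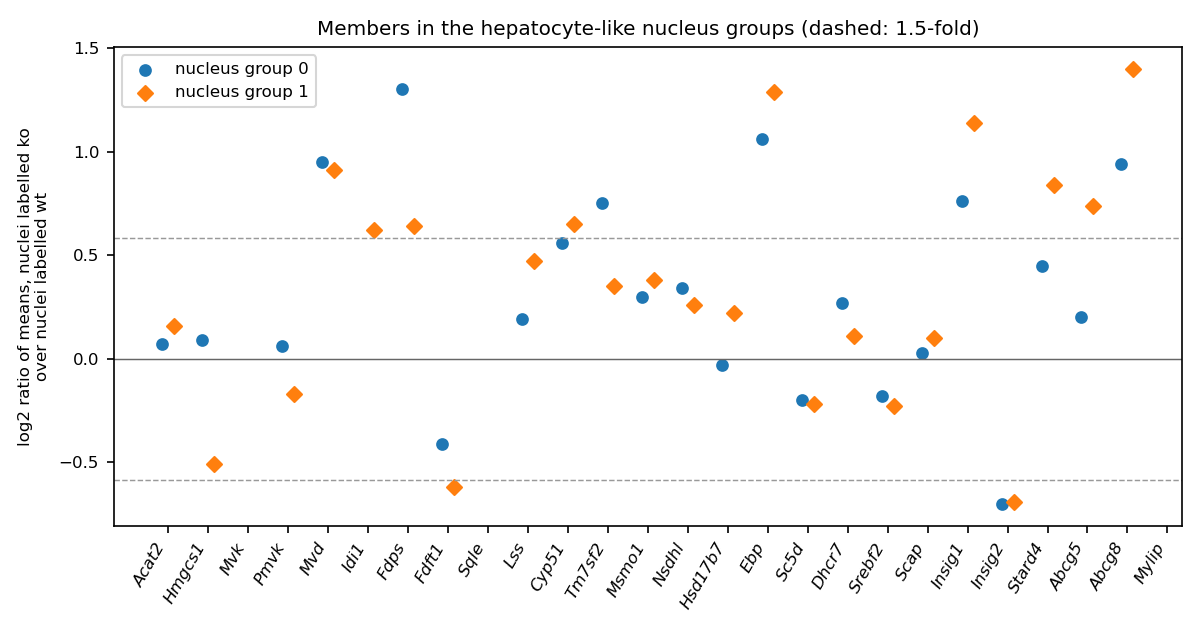
Log2 ratio of the mean level in ko nuclei to that in wt nuclei for members above the median level of genes, in group 0 (circles) and group 1 (diamonds); 1 pooled library per genotype, so no error is shown. Abcg8, Insig1, Ebp, Mvd and Fdps lie above the upper dashed 1.5-fold line in both groups, and Insig2 lies below the lower one.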

How the data were processed

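The bulk tables hold signal values that the authors deposited as reads per gene over a size factor for the library. All values were whole multiples of the size of 1 read (tolerance 0.01). The deposited log2 fold changes and adjusted p-values are the authors' own; the submitters' processing notes list FastQC, STAR, DESeq2, Cell Ranger and Seurat 4.0.1 with mm10. Remaining versions, gene models and strand settings are not given in the sources used here. For nuclei, the deposited signal is the mean of UMIs scaled to 10000 per nucleus, for each group and genotype.

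Genes with at least 10 normalized counts in 3 of 6 libraries were tested with limma 3.58.1 (trend, 2-sided) in R 4.3.3 on log2 (value + 1), each table alone. Whole reads were also tested with edgeR 4.0.16 and DESeq2 1.42.0. The fit was tested on simulated data. For nuclei, ratios took the 5th percentile of nonzero values as pseudocount, and genes above the median level. A group was named where at least 3 markers reached 0.5 of the highest group, most of that type, with a marker among the leading 10 genes. Exon lengths and positions are those of the reference gene models on mm10. Alternatives were other scalings, pseudocounts, filters and tests, a replicate block and each library left out.

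Members and lists were chosen with earlier results of these data known. All members are reported, and up to 3 called genes per further list and direction. The SREBP motif TCACNCCA was added after the data were seen.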

Additional observations from a re-analysis of the deposited data

How the results depend on the processing

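The count of members called between libraries labelled KO and wild type was 1, and it stayed 1 with quantile normalization, TMM scaling, both other pseudocounts, both other filters and edgeR. It was 2 with the replicate block (Abcg5 added, adjusted p = 0.0466), 3 in DESeq2, and 0 to 1 without 1 library. Between libraries labelled LD and PBS it was 3, but 0 with quantile normalization and 0 to 6 without 1 library, and 6 without LD replicate 3. With the replicate block that count stayed 3, with Sqle in place of Scap (adjusted p of 0.0420 and 0.0580). Replicate numbers did not pair the libraries: correlations of deviations for equal numbers were 0.12, -0.03 and -0.02 in the KO table and 0.05, -0.04 and 0.13 in the LD table. Over all genes DESeq2 called 1241 against 589 in limma for KO and 1222 against 620 for LD. With a floor at the 75th percentile of level, the median nuclei ratio was 0.57 for the enzymes in group 0 (0.27 at the median floor) and 0.64 for the members in group 1 (0.35).

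No sign change touched a called member. With quantile normalization, Idi1 (0.01), Fdps (0.06), Ebp (0.05) and Dhcr7 (0.05) turned positive for KO, and Fdps (-0.04), Fdft1 (-0.00) and Insig2 (-0.13) negative for LD. Fdps for KO stood at 0.00 with TMM scaling, and Msmo1 for LD at 0.02 in edgeR and 0.03 in DESeq2. Without 1 library, 16 members crossed 0 for KO, with log2 fold changes of Hmgcs1 -0.75 to 0.01, Pmvk -0.18 to 0.34, Mvd -0.39 to 0.38, Idi1 -0.32 to 0.24, Fdps -0.24 to 0.33, Fdft1 -0.37 to 0.18, Sqle -0.14 to 0.63, Lss -0.01 to 0.47, Cyp51 -0.39 to 0.17, Nsdhl -0.29 to 0.09, Ebp -0.10 to 0.04, Sc5d -0.19 to 0.01, Dhcr7 -0.14 to 0.19, Srebf2 -0.14 to 0.05, Stard4 -0.05 to 0.13 and Mylip -0.03 to 0.39. For LD 12 did, with Acat2 -0.18 to 0.07, Hmgcs1 -0.19 to 0.03, Mvk -0.26 to 0.08, Pmvk -0.30 to 0.01, Fdps -0.37 to 0.28, Fdft1 -0.12 to 0.17, Lss -0.03 to 0.21, Msmo1 -0.23 to 0.13, Nsdhl -0.34 to 0.02, Dhcr7 -0.29 to 0.07, Srebf2 -0.11 to 0.03 and Insig2 -0.14 to 0.31. The cause was not tested. With 3 libraries a group, no exact permutation test of a single gene could go below p = 0.1.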
